A study of Mus musculus with 48 samples.

Results

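The comparison was of mouse embryonic stem cells (ESCs) exposed to AM580 for 48 h with control ESCs labelled with the same time point. Its members were the 2 AM580 libraries and the 2 control libraries labelled 48 h, 4 of the 48 samples of the series. The cells were female C57BL/6 ESCs, in lines with or without a β-actin-GFP reporter, and the labels do not say which line gave which library. All groups had been moved from a medium with 2i and LIF, which holds ESCs in the naive state, to an ES medium without them on fibronectin, after feeder fibroblasts had been removed by a short adherence step. AM580 was the agent under test as an inducer of gonadal somatic cell-like cells (GSCLCs), and its dose is not given in the sources used here. The study's text describes its controls as cells at the start of induction, whereas the labels give the control libraries as 24 h and 48 h, and the labels were followed. If the controls had not spent that time in the medium, time and AM580 could not be told apart in the differences between AM580 and control below. The control libraries labelled 24 h and 48 h differed from each other, as given below for Esrrb, Tfcp2l1 and Dnmt3b. Their time in the medium was not tested. The same experiment held a 24 h pair with its own controls and, at both times, cells given vitamin C (Vc) alone or Vc with AM580 (V580), again with 2 libraries a group. The AM580 and control libraries at 24 h and the V580 and Vc libraries at 48 h serve below as reference points. RNA with poly(A) tails was sequenced in bulk, so that fewer cells of a type and less RNA per cell cannot be told apart. The sources do not say that the libraries of a group came from separate cultures, and the p values therefore measure only the spread between these libraries, which may be technical.

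AM580 is a synthetic retinoid that acts as an agonist of the retinoic acid receptor RARα. Retinoic acid receptors sit on DNA as heterodimers with retinoid X receptors, and binding of a ligand exchanges corepressors for coactivators on target genes. The best known targets are the enzymes and binding proteins that remove or carry retinoic acid itself, the receptor gene Rarb and the Hox genes, which are switched on along their clusters as the body axis is laid down. In ESCs retinoic acid drives the cells out of pluripotency, and in the fetal gonad it is known as a signal for entry of germ cells into meiosis.

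Levels are given as FPKM, the number of fragments scaled to the length of the gene and the size of the library. The divisors recovered from the values were between 19000000 and 21100000 fragments in the 4 libraries, so that 1 fragment in a gene of 1 kb is worth about 0.05 FPKM. A gene was tested when it reached 1 FPKM in at least 2 of the 16 libraries of the experiment, and it was called changed when its limma-adjusted p (Benjamini-Hochberg) was below 0.05 and its difference in log2(FPKM + 1) was at least 2-fold. The log2 fold changes below are on that scale, which understates the change of genes near or below 1 FPKM, and the ± after them is a standard error. Of 10644 genes tested, 344 (3.23%) changed between AM580 and control at 48 h: 248 (2.33%) rose and 96 (0.902%) fell. Without the fold threshold 6063 genes (57%) passed the adjusted p, 2737 higher and 3326 lower, so that most genes past the adjusted p lay below the fold threshold. The libraries of the 2 groups did not overlap in 8445 of the genes tested (79.3%). A gene could reach the level for a test through the treated libraries alone and then had to differ. Of the 248 rises 200, and all 96 falls, were among the 10376 genes that reached it without the AM580 and V580 libraries at 48 h (1.93% of those rose). Such counts, here and below, looked at control and AM580 at 24 h and control and Vc at 48 h. Vc and V580 at 24 h were not looked at. Genes that AM580 had raised by 24 h can still be among them. Of the 9710 tested genes with 1 FPKM or more in both 48 h controls, 158 rose. The median log2 fold change over all genes tested was -0.03. Replicate libraries differed by 0.10 (control) and 0.12 (AM580) root mean square log2 units over these genes, and an AM580 library differed from a control library by 0.43 to 0.44. The 2 groups therefore stood further apart than their replicates, as the plot of gene levels shows.

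**Figure D1:**
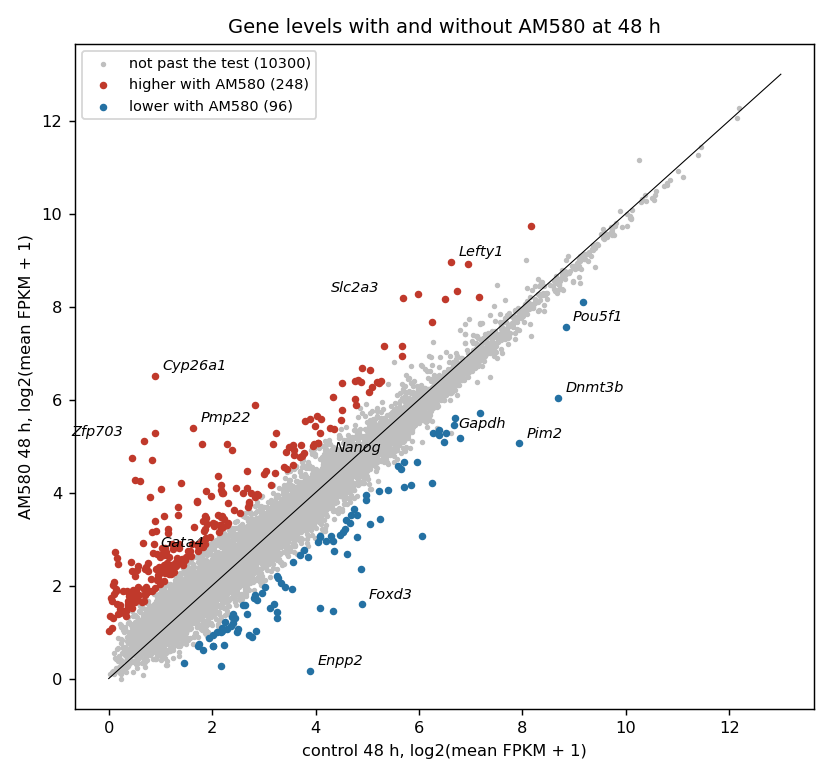
Mean level of each tested gene in the control libraries (horizontal) and the AM580 libraries (vertical) at 48 h, as log2(FPKM + 1), 2 libraries a group, with the line of equal levels. The 248 genes that rose lie mostly at low control levels, and the 96 that fell include Pou5f1, Dnmt3b and Pim2 at high control levels.

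The libraries carried the markers of ESCs throughout. All 10 ESC markers were tested. Their summed level was 2424 and 2538 FPKM in the controls and 2778 and 2982 FPKM with AM580. The higher sum with AM580 came from Dppa5a, whose levels are given below. The other markers together read lower with AM580 than in the controls. Of the 10 markers 4 fell, against 0.902% of all genes. Sox2 and Utf1, 2 of the 4, were short of the fold threshold without AM580 replicate 1 or without control replicate 2. Markers of fibroblasts, the feeder cell type, were present at low levels: 10 of 12 were tested, none changed (Dcn passed at -1.05 log2 under quantile normalization), their median log2 fold change was -0.06, and their sum was 50.1 and 53.1 FPKM in the controls against 47.0 and 43.4 FPKM with AM580. Of the macrophage markers, Cx3cr1 was at 0 in all 4 libraries, 2 of 7 were tested and neither changed, and the sum was 8.68 and 8.83 FPKM in the controls against 6.38 and 6.60 FPKM with AM580. No red cell marker reached the level for a test, and Hbb-bs was at 0. Of 5 endothelial markers tested 1 rose, against 2.33% of all genes. This was the receptor gene Tie1, which went from 0.389 and 0.338 FPKM to 4.29 and 3.66 FPKM. Emcn was at 0 and Cdh5 at or below 0.138 FPKM in all 4 libraries. Tie1 did not reach the level for a test in the controls, with AM580 at 24 h or with Vc at 48 h. The sum of the endothelial list was 8.78 and 8.83 FPKM in the controls and 11.6 and 12.3 FPKM with AM580, and the part of any of these cell types in the results below was not tested.

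Most of the tested genes that answer to retinoic acid rose. Of 20 listed retinoic acid response genes 15 were in the table and 12 were tested, of which 11 rose and none fell, against 2.33% of all genes rising. Of the 10 that reached the level for a test without the AM580 and V580 libraries at 48 h, 9 rose. Of the 6 at 1 FPKM or more in both 48 h controls, 5 rose. Cyp26a1, the enzyme that degrades retinoic acid, stood at 1.05 and 0.670 FPKM in the controls and at 87.4 and 93.9 FPKM with AM580 (log2 fold change 5.63 ± 0.09, adjusted p = 2.1e-15), the largest rise of all genes tested. Rarb, the receptor gene that is itself a target of the receptors, went from 0.0191 and 0.0812 FPKM to 2.18 and 2.23 FPKM (log2 fold change 1.61 ± 0.07, adjusted p = 1.4e-10). The control values of Rarb rest on 2 and 9 fragments and the AM580 values on 225 and 222. No value of either gene overlapped between the groups, as held for 79.3% of all genes tested.

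These promoters are shown because they hold the classical response element of the retinoic acid receptors, a pair of direct half-sites 5 bases apart. The 250 bases before the start of each gene are printed 5′ to 3′ on the strand of the gene, from RefSeq on GRCm38.p6, with the matched stretch in capitals. The capitals leave out the first base of the first half-site, as the element reads. Rarb lies on the minus strand (chr14:16575477-16575726) and Cyp26a1 on the plus strand (chr19:37697558-37697807).
Rarb: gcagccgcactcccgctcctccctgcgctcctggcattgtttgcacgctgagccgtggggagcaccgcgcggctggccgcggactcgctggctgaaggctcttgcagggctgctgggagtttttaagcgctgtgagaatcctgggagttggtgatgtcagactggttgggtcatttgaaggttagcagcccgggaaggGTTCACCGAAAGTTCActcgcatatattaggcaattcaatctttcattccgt
Cyp26a1: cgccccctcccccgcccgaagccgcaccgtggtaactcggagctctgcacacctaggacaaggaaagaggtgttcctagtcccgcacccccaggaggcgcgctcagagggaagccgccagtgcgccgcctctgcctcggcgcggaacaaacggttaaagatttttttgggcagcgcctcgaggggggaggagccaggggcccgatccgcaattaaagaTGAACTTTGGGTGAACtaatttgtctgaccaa
The capitals start at base -52 of Rarb, where the element lies on the strand of the gene, and at base -32 of Cyp26a1. In Cyp26a1 the element lies on the opposite strand and so reads reversed and complemented. The search took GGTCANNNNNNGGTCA, GGTCANNNNNNGTTCA, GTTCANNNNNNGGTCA and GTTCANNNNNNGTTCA on both strands of the window from 250 bases before to 50 bases after each start. These patterns leave the first base of each half-site free. Of 32851 such windows, 0.247% held a match. Of the 248 genes that rose, 175 had a window, and in 2 of them (1.14%), Cyp26a1 and Rarb, it held a match. Of the 96 that fell, 74 had a window and none held one. Of 8472 tested genes with a window, 15 (0.177%) held one. A match is a sequence in this window only, and elements further away were not searched.

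Other genes of retinoid handling moved the same way. Dhrs3, which turns retinaldehyde back into retinol, stood at 1.01 and 1.01 FPKM in the controls and at 15.9 and 15.8 FPKM with AM580 (log2 fold change 3.07 ± 0.08, adjusted p = 1.6e-13). Crabp2, the carrier of retinoic acid, rose from 12.4 and 12.04 FPKM to 31.0 and 31.9 FPKM (log2 fold change 1.30 ± 0.09, adjusted p = 3.0e-08). Stra6, the membrane receptor for the retinol carrier of plasma, rose from 0.449 and 0.513 FPKM to 4.41 and 4.23 FPKM (log2 fold change 1.84 ± 0.08, adjusted p = 7.7e-11). With Cyp26a1, these genes rose by between 1.30 and 5.63 log2 units. The corepressor gene Zfp703 had 0.608 and 0.588 FPKM in the controls and 33.8 and 33.2 FPKM with AM580 (log2 fold change 4.43 ± 0.09, adjusted p = 1.4e-14), and Nrip1, the gene of another corepressor of nuclear receptors, had 1.36 and 1.13 FPKM and 5.40 and 4.90 FPKM (1.45 ± 0.08 log2). Tgm2, a transglutaminase, was the tested gene of the list that was not called, with 1.76 and 2.10 FPKM against 4.02 and 3.77 FPKM (log2 fold change 0.74 ± 0.07, adjusted p = 6.1e-07). Cyp26b1, a second degrading enzyme, did not reach the level for a test and read 0.0564 and 0.0710 FPKM in the controls and 0.913 and 0.858 FPKM with AM580.

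**Figure D2:**
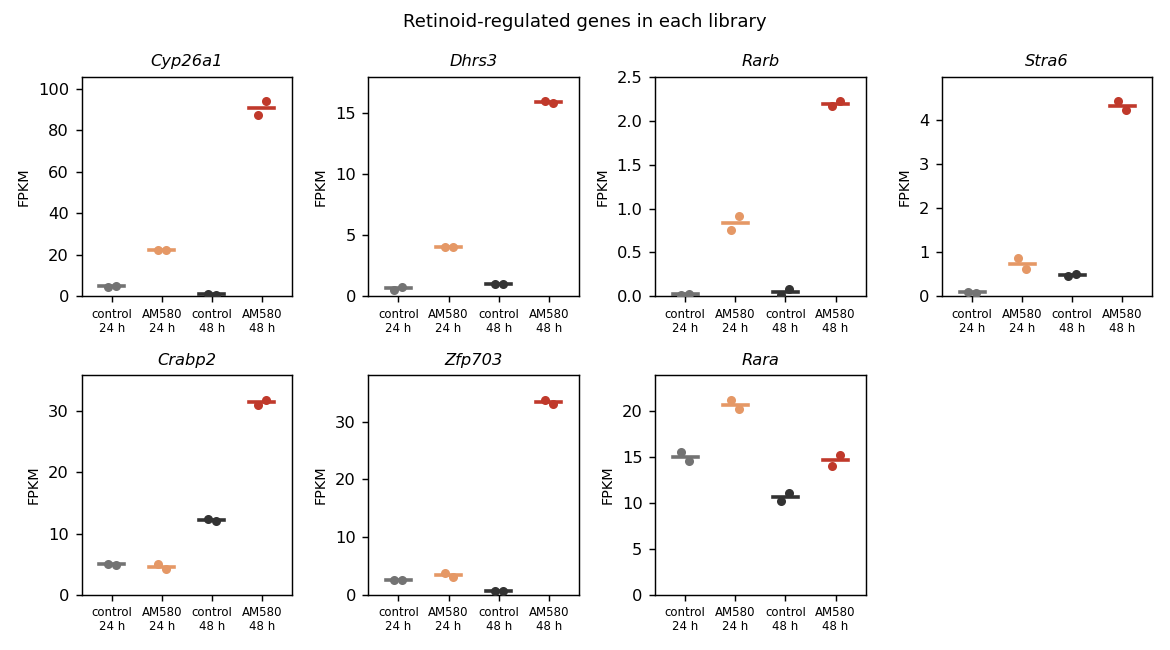
FPKM of 7 retinoid-related genes in each library (points) with the mean of 2 libraries (bar), for control and AM580 at 24 h and 48 h, each panel on its own linear axis from 0. In the 6 panels of response genes the AM580 points at 48 h lie above all other points, while Rara, which codes for the receptor that AM580 binds, spans a far narrower range and is highest with AM580 at 24 h.

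Apart from Rarb, the receptors, their cofactors and the enzymes that make retinoic acid held no call. Their list, which does not include Rarb, had 13 tested genes with a median of 0.10 log2. Of these, 10 passed the adjusted p below the fold threshold, and 57% of all genes tested passed the adjusted p. Rara read 10.1 and 11.0 FPKM in the controls and 14.0 and 15.2 FPKM with AM580 (log2 fold change 0.43 ± 0.06, adjusted p = 2.1e-05). Rarg, the receptor gene with the highest level of the 3, read 56.3 and 58.2 FPKM against 32.3 and 34.4 FPKM (log2 fold change -0.76 ± 0.05, adjusted p = 5.2e-09). Rarb, described above, was the lowest of the 3 in both groups. Rxra, a partner of all 3 receptors, read 4.14 and 4.28 FPKM against 6.44 and 5.73 FPKM (0.44 ± 0.06 log2). Aldh1a2, the main synthetic enzyme of the embryo, read 0.689 and 0.692 FPKM against 1.57 and 1.24 FPKM (log2 fold change 0.50 ± 0.10, adjusted p = 7.8e-04).

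Hox genes made up a large part of the strongest rises. Of 39 listed Hox genes 20 were in the table and 13 were tested. Of these, 10 rose and none fell, against 2.33% of all genes rising, and 5 of the 12 largest rises were Hoxb genes. None of the 13 reached 1 FPKM in both 48 h controls, and of the 8 that reached the level for a test without the AM580 and V580 libraries at 48 h, 6 rose, so that the other 4 rises were among genes tested only because of the treated libraries. The Hoxb genes Hoxb3 to Hoxb9 lie on 1 strand of chromosome 11 (GRCm38, from 96271457 at the start of Hoxb9 to 96347930 at the end of Hoxb3). Hoxb4 stood at 0.863 and 0.870 FPKM in the controls and at 38.7 and 37.0 FPKM with AM580 (log2 fold change 4.38 ± 0.09, adjusted p = 1.4e-14). Hoxb5 went from 0.379 and 0.341 FPKM to 25.4 and 26.3 FPKM (log2 fold change 4.30 ± 0.08, adjusted p = 1.2e-14), Hoxb9 from 0.899 and 0.664 FPKM to 25.3 and 24.9 FPKM (3.88 ± 0.11 log2). Hoxb8 read 0.496 and 0.361 FPKM in the controls and 18.2 and 18.4 FPKM with AM580, and Hoxb6 read 0.589 and 0.460 FPKM and 18.6 and 17.4 FPKM. All 5 genes were below 1 FPKM in both controls and above 17 FPKM in both AM580 libraries. Hoxb7, which lies between Hoxb6 and Hoxb8, reached only 3.63 and 3.59 FPKM with AM580 (log2 fold change 1.69 ± 0.13, adjusted p = 6.6e-08), and Hoxb3 reached 2.07 and 1.94 FPKM (log2 fold change 1.37 ± 0.07, adjusted p = 6.5e-10).

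By log2 fold change, called Hox genes outside the Hoxb cluster lay below these 5 and above Hoxb7 and Hoxb3. Hoxa3 had 0.0669 and 0.166 FPKM in the controls and 5.13 and 4.91 FPKM with AM580 (log2 fold change 2.43 ± 0.07, adjusted p = 1.6e-12). Hoxc4 had 0.196 and 0.0555 FPKM and 4.54 and 4.56 FPKM (2.305 ± 0.07 log2), and Hoxc5 had 0.0651 and 0.0769 FPKM and 4.04 and 2.44 FPKM (1.96 ± 0.13 log2). The AM580 libraries of Hoxc5 lay further apart on the log2 scale than those of any other called Hox gene, and its control values rest on 4 and 5 fragments. The more 5′ genes Hoxc6, Hoxc8 and Hoxc10 were tested and not called, at 0.21 to 0.37 log2. Genes of the Hoxd cluster, from Hoxd3 to Hoxd11, did not reach the level for a test, Hoxd9 being the highest of them with AM580 at 1.26 and 0.914 FPKM. Further Hox genes of the list were not analysed here. The kit does not mark strand, so that reads of antisense transcripts in the clusters cannot be told from those of the Hox genes.

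**Figure D3:**
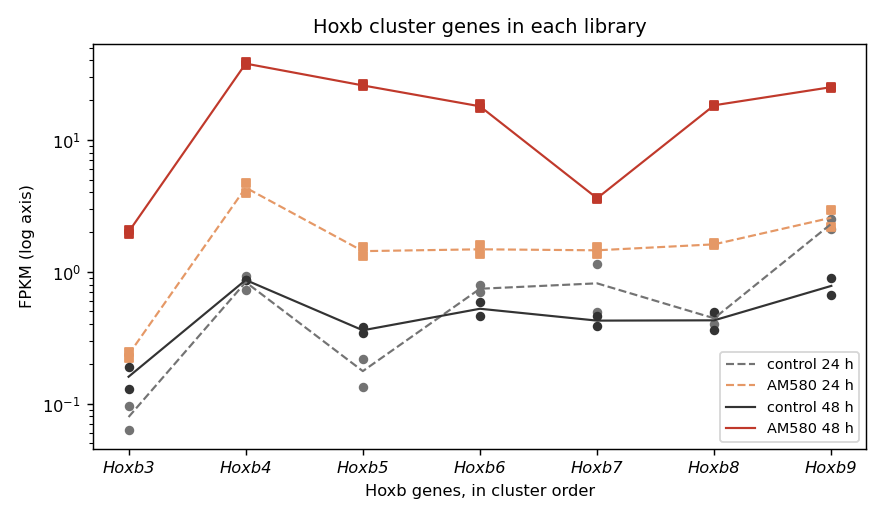
FPKM of 7 Hoxb genes in cluster order, on a log axis, for control and AM580 at 24 h and 48 h (points, 2 libraries a group; lines join the means). The AM580 line at 48 h lies above the others at every gene and is lowest at Hoxb3 and Hoxb7, while the 24 h AM580 points lie highest at Hoxb4.

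Meis1 and Meis2, counted above in the retinoic acid list, code for proteins that bind DNA together with Hox proteins. Meis1 went from 0.392 and 0.302 FPKM to 4.79 and 4.60 FPKM (log2 fold change 2.08 ± 0.06, adjusted p = 9.9e-13) and Meis2 from 0.781 and 0.895 FPKM to 6.70 and 6.10 FPKM (2.01 ± 0.07 log2).

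The remaining genes among the 12 largest rises did not belong to these lists. Pmp22, a myelin membrane protein also found in epithelia, went from 2.07 and 2.16 FPKM to 43.6 and 38.7 FPKM (log2 fold change 3.76 ± 0.06, adjusted p = 1.9e-15). Efnb1, a membrane-bound ligand of Eph receptors, went from 2.54 and 2.42 FPKM to 32.0 and 31.7 FPKM (log2 fold change 3.24 ± 0.07, adjusted p = 5.7e-14). Krt20, a keratin of epithelia, went from 0.888 and 0.592 FPKM to 14.6 and 13.3 FPKM (3.11 ± 0.12 log2), and Aard from 6.16 and 6.03 FPKM to 55.4 and 61.0 FPKM (3.06 ± 0.06 log2). In each of these 4 genes the lower AM580 library was more than 8 times above the higher control library, as FPKM.

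Genes of the pluripotency network split. Of 11 tested genes of general pluripotency 3 fell and none rose (0.902% of all genes fell), with a median of -0.44. Pou5f1, which codes for Oct4, read 451 and 461 FPKM in the controls and 182 and 195 FPKM with AM580 (log2 fold change -1.27 ± 0.05, adjusted p = 8.5e-11). Sox2, the partner of Oct4, read 76.2 and 77.2 FPKM against 37.0 and 38.6 FPKM (log2 fold change -1.002 ± 0.04, adjusted p = 2.4e-11). Utf1, a chromatin protein of pluripotent cells, read 544 and 606 FPKM against 254 and 295 FPKM (log2 fold change -1.07 ± 0.08, adjusted p = 2.5e-08). The groups did not overlap in any of the 3 genes, as in 79.3% of all genes tested, and Sox2 and Utf1 lay just past the fold threshold. Without AM580 replicate 1 their log2 fold changes were -0.97 and -0.96, and without control replicate 2 both were -0.99, so that Pou5f1 alone was called. Under quantile normalization they were -0.87 and -0.94, and under median-of-ratios scaling Sox2 was -0.97. Lin28a, an RNA-binding protein, was not called (log2 fold change 0.05 ± 0.03, adjusted p = 0.24), and Dppa5a was higher with AM580 without reaching the threshold, at 1199 and 1233 FPKM against 2208 and 2352 FPKM (log2 fold change 0.91 ± 0.07, adjusted p = 4.9e-08).

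The naive pluripotency genes did not follow Pou5f1. Of 13 tested, 1 rose and 1 fell, against 2.33% and 0.902% of all genes, and the median was 0.50. Nanog, a core factor of the naive state, read 18.1 and 17.7 FPKM in the controls and 26.1 and 25.9 FPKM with AM580 (log2 fold change 0.52 ± 0.05, adjusted p = 5.6e-07), a difference larger than the replicate spread and below the fold threshold. Esrrb read 5.82 and 5.96 FPKM against 9.29 and 9.08 FPKM (log2 fold change 0.56 ± 0.06, adjusted p = 1.3e-06), and Tfcp2l1 1.52 and 1.52 FPKM against 3.60 and 3.41 FPKM (log2 fold change 0.84 ± 0.10, adjusted p = 4.3e-06). Both are transcription factors of the naive state. Tbx3, a T-box factor of naive cells and of endoderm, rose from 0.349 and 0.423 FPKM to 2.67 and 2.77 FPKM (log2 fold change 1.42 ± 0.07, adjusted p = 1.9e-10). Fgf4, the ligand that pushes ESCs towards differentiation, fell from 107 and 114 FPKM to 33.6 and 36.5 FPKM (log2 fold change -1.63 ± 0.05, adjusted p = 1.9e-12). The controls themselves read 37.6 ± 0.356 FPKM for Esrrb and 11.3 ± 1.38 FPKM for Tfcp2l1 at 24 h (mean ± SD, n = 2), and 5.89 ± 0.0981 and 1.52 ± 0.00416 FPKM at 48 h.

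**Figure D4:**
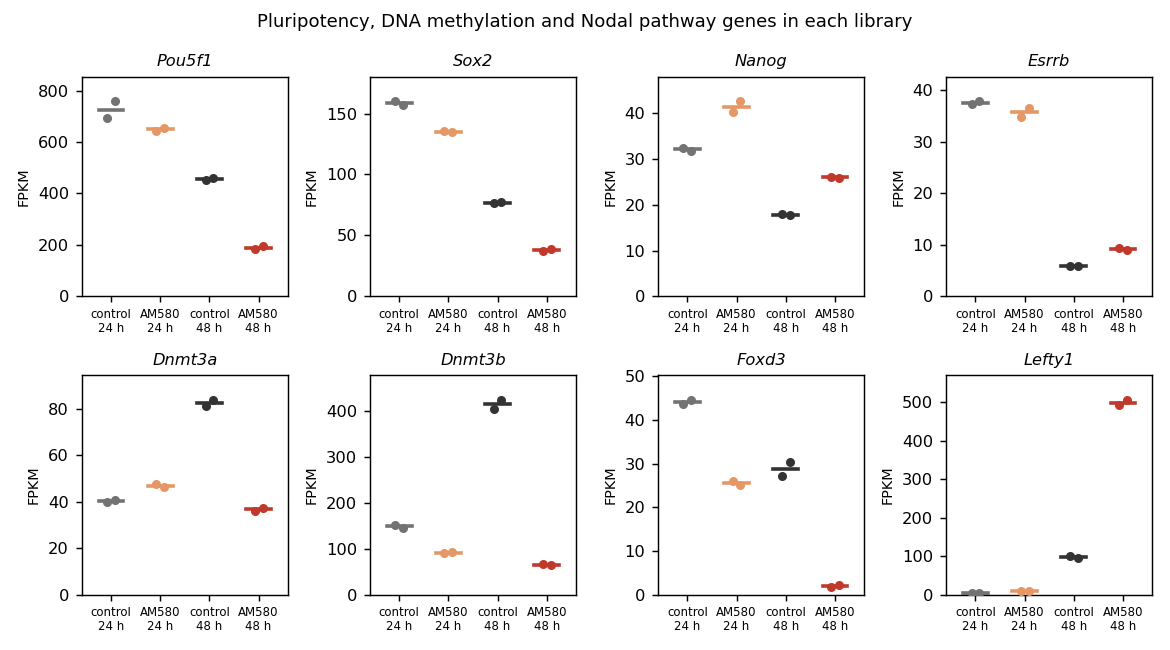
FPKM of 8 genes in each library (points) with the mean of 2 libraries (bar), for control and AM580 at 24 h and 48 h, each panel on its own linear axis from 0. At 48 h AM580 lies below control for Pou5f1, Sox2, Dnmt3a, Dnmt3b and Foxd3 and above control for Nanog, Esrrb and Lefty1. In Dnmt3a and Dnmt3b the control points at 48 h are the highest of the panel.

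The formative and primed states are those which ESCs pass through after leaving 2i and LIF. Of 9 tested genes of these states 5 fell, 4 were not called and none rose (0.902% of all genes fell), with a median of -1.15. Foxd3, a factor of the passage from naive to primed cells, fell from 27.1 and 30.4 FPKM to 1.77 and 2.29 FPKM (log2 fold change -3.30 ± 0.09, adjusted p = 4.2e-13). Lef1, a nuclear partner of β-catenin, fell from 5.45 and 6.14 FPKM to 0.858 and 0.865 FPKM (log2 fold change -1.87 ± 0.08, adjusted p = 4.7e-11), and Zic5, a zinc finger factor, from 20.4 and 18.4 FPKM to 5.64 and 5.74 FPKM (-1.61 ± 0.07 log2). Fgf5, the usual marker of formative cells, was not called, at 22.0 and 20.7 FPKM against 17.0 and 15.7 FPKM (log2 fold change -0.37 ± 0.09, adjusted p = 0.0024). Cdh2 and Sox4 were above control by 0.65 and 0.71 log2 without reaching the threshold. The 2 remaining genes that fell are de novo DNA methyltransferases, and the list of DNA methylation genes shares them.

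Dnmt3b, a de novo enzyme, was among the most abundant genes that fell, from 403 and 423 FPKM to 65.8 and 64.1 FPKM (log2 fold change -2.65 ± 0.04, adjusted p = 1.9e-15; chromosome 2, 153649450 to 153687730, GRCm38). Dnmt3a fell from 81.5 and 84.0 FPKM to 36.2 and 37.2 FPKM (log2 fold change -1.15 ± 0.04, adjusted p = 2.2e-11). The other 7 of 9 tested genes of DNA methylation were not called, where 0.902% of all genes fell. The maintenance enzyme gene Dnmt1 read 45.9 and 43.8 FPKM against 40.9 and 40.1 FPKM (log2 fold change -0.14 ± 0.05, adjusted p = 0.016), and Dnmt3l, a cofactor of the de novo enzymes, read 299 and 330 FPKM against 298 and 316 FPKM (log2 fold change -0.03 ± 0.06, adjusted p = 0.68). Tet1, an enzyme that oxidises methylated cytosine, was lower without reaching the fold threshold (log2 fold change -0.97 ± 0.15, adjusted p = 9.4e-05), which it passed at -1.05 without control replicate 2, and Tet2 was higher (log2 fold change 0.68 ± 0.10, adjusted p = 5.5e-05). The controls read 148 ± 4.48 FPKM (mean ± SD, n = 2) for Dnmt3b at 24 h and 413 ± 14.3 FPKM at 48 h, and the AM580 groups read 91.2 ± 1.54 and 64.9 ± 1.17 FPKM.

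The 12 largest falls named here are those among genes with at least 5 FPKM in the control group. Beside Foxd3, Dnmt3b and Lef1 they were of varied kinds. Enpp2, which codes for autotaxin, the enzyme that makes lysophosphatidic acid, fell from 13.6 and 14.1 FPKM to 0.123 and 0.119 FPKM (log2 fold change -3.73 ± 0.09, adjusted p = 1.0e-13), the largest fall. Mycn, a Myc family factor of ESCs, fell from 63.9 and 67.1 FPKM to 7.48 and 7.19 FPKM (log2 fold change -2.99 ± 0.06, adjusted p = 2.3e-14). Pim2, a serine/threonine kinase, fell from 241 and 247 FPKM to 31.5 and 33.3 FPKM (log2 fold change -2.88 ± 0.04, adjusted p = 1.9e-15). The transmembrane semaphorin gene Sema6a went from 19.3 and 19.4 FPKM to 1.79 and 1.68 FPKM (-2.89 ± 0.07 log2), the fatty acid transport gene Slc27a2 from 16.1 and 15.9 FPKM to 1.80 and 1.91 FPKM (-2.57 ± 0.07 log2), and the zinc finger gene Sall1 from 28.4 and 28.4 FPKM to 3.96 and 4.32 FPKM (-2.52 ± 0.05 log2). Hes6, a helix-loop-helix factor, Jph4, a junctophilin, and Apela, a peptide ligand of the apelin receptor, fell by 2.04, 1.96 and 1.94 log2 units.

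Gata4 and Foxl2, the genes by which GSCLCs were followed in the study, differed in how firmly they could be read. Gata4, a zinc finger factor of the gonadal ridge, the heart and the extraembryonic endoderm (chromosome 14, 63198922 to 63271692), stood at 0.863 and 0.742 FPKM in the controls and at 5.32 and 5.72 FPKM with AM580 (log2 fold change 1.85 ± 0.10, adjusted p = 1.5e-09), on 67 and 61 against 408 and 423 fragments. It did not reach the level for a test in the controls, with AM580 at 24 h or with Vc at 48 h. Foxl2, a forkhead factor of granulosa cells (chromosome 9, 98955288 to 98958543), read 0.124 and 0.0146 FPKM in the controls and 0.422 and 0.243 FPKM with AM580, on 8 and 1 against 27 and 15 fragments. It did not reach the level for a test. With no filter on low levels its log2 fold change was 0.32 ± 0.08 with an adjusted p of 0.0042, short of the fold threshold. The libraries of the 2 groups did not overlap for Foxl2, as for 79.3% of all genes tested, and all 4 lay below 0.5 FPKM.

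Few other genes of the gonad primordium passed the test. Of 8 tested genes 1 rose, Gata4, and 1 fell, Fst, against 2.33% and 0.902% of all genes, and the median was 0.01. Fst, the gene of the activin antagonist follistatin, fell from 4.31 and 5.04 FPKM to 1.10 and 1.12 FPKM (log2 fold change -1.43 ± 0.07, adjusted p = 4.6e-10). Wt1, a zinc finger factor of the gonadal ridge and kidney, read 9.86 and 10.3 FPKM against 12.2 and 12.47 FPKM (log2 fold change 0.27 ± 0.06, adjusted p = 0.0021). Wnt4, a ligand of the female gonad, read 0.276 and 0.238 FPKM against 1.02 and 1.04 FPKM (log2 fold change 0.69 ± 0.11, adjusted p = 6.9e-05). Cbx2, Six4, Rspo1 and Amhr2 each lay within 0.16 log2 units of control. Nr5a1, Lhx9, Emx2 and Osr1, factors of the early gonad and intermediate mesoderm, stayed below 0.5 FPKM in all 4 libraries and were not tested. The list of gonadal somatic cell markers, 4 of 8 tested, held the same 2 calls, and its summed level was 17.5 and 19.0 FPKM in the controls and 21.9 and 22.1 FPKM with AM580.

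A part of the extraembryonic endoderm genes rose. Of 20 tested genes of that list 11 rose and none fell, against 2.33% of all genes rising, and Gata4 is 1 of the 11. Of the 14 that reached the level for a test without the AM580 and V580 libraries at 48 h, 6 rose, with a median of 0.78 over the 14. Of the 12 at 1 FPKM or more in both 48 h controls, 4 rose. Gata6, the factor that starts primitive endoderm, rose from 0.126 and 0.119 FPKM to 1.69 and 2.37 FPKM (log2 fold change 1.42 ± 0.09, adjusted p = 5.7e-09). Sox7 read 0.168 and 0.173 FPKM against 1.96 and 1.68 FPKM (1.27 ± 0.08 log2) and Foxa2 0.0212 and 0.240 FPKM against 1.61 and 1.60 FPKM (1.21 ± 0.10 log2). These are transcription factors of visceral or parietal endoderm, and none exceeded 3 FPKM. Cubn, an uptake receptor of visceral endoderm, rose from 0.125 and 0.0890 FPKM to 2.91 and 2.50 FPKM (log2 fold change 1.74 ± 0.07, adjusted p = 3.6e-11). The basement membrane genes Lama1, Col4a1 and Col4a2 rose as well, Lama1 from 1.12 and 1.16 FPKM to 5.43 and 5.77 FPKM (1.63 ± 0.10 log2), and Dab2, an endocytic adaptor, from 2.03 and 2.10 FPKM to 6.64 and 6.28 FPKM (1.28 ± 0.08 log2). Abundant members of the list did not pass the threshold: Sparc read 99.1 and 108 FPKM against 112 and 112 FPKM (log2 fold change 0.11 ± 0.04, adjusted p = 0.036) and Lamb1 26.7 and 27.0 FPKM against 32.0 and 31.0 FPKM (0.22 ± 0.05 log2). Sox17 stood just short of it (log2 fold change 0.93 ± 0.07, adjusted p = 9.5e-08). Col4a1, at 1.03 ± 0.07 log2, was just past it and lost its call without AM580 replicate 1 (0.97) and without control replicate 1 (0.9996). With a filter of 5 FPKM in 2 libraries 5 members of the list rose, fewer of them being tested.

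Epithelial and trophoblast genes rose in part, against 2.33% of all genes rising. Among 14 tested genes of epithelial junctions and keratins 3 rose, all keratins. Krt8 went from 32.3 and 31.8 FPKM to 101 and 95.7 FPKM (log2 fold change 1.59 ± 0.05, adjusted p = 8.1e-12), its partner Krt18 from 35.7 and 37.2 FPKM to 81.3 and 81.7 FPKM (log2 fold change 1.14 ± 0.04, adjusted p = 1.8e-11), and Krt7 from 0.963 and 0.991 FPKM to 3.87 and 3.74 FPKM (1.28 ± 0.07 log2). The adhesion genes Cdh1 (E-cadherin) and Epcam were below control by 0.61 and 0.54 log2 and were not called. Of 5 tested trophoblast genes 4 rose, Gata2, Gata3, Plac1 and Krt7, by 1.10 to 1.28 log2, and none of the 4 exceeded 4 FPKM. Of the 3 that reached the level for a test without the AM580 and V580 libraries at 48 h, 2 rose. Among the tested trophoblast genes 1 was at 1 FPKM or more in both 48 h controls, and it did not rise. Gata2 lay at 1.12 ± 0.09 log2 and lost its call without control replicate 2 (0.997). With the filter of 5 FPKM 1 trophoblast gene rose, fewer being tested.

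Ectodermal and mesodermal lists gave few calls, where 2.33% of all genes tested rose and 0.902% fell. No gene of 6 tested in the neuroectoderm list changed, and their median was -0.04. In the neural crest list 3 of 6 rose, the homeobox gene Msx1 from 1.59 and 1.503 FPKM to 12.55 and 11.2 FPKM (log2 fold change 2.34 ± 0.10, adjusted p = 5.6e-11), together with Sox10 (1.13 ± 0.09 log2) and Msx2 (1.07 ± 0.10 log2). Msx2 was not called without control replicate 1 (0.97), and 1 of the 3 reached the level for a test without the AM580 and V580 libraries at 48 h. In the streak and mesoderm list 1 of 5 rose, the T-box gene Eomes, from 1.26 and 1.35 FPKM to 4.55 and 4.33 FPKM (log2 fold change 1.24 ± 0.07, adjusted p = 9.8e-10). Snai1, a repressor of epithelial genes in that list, was called without control replicate 2 (1.03) and under median-of-ratios scaling (1.01) and not with all libraries (0.98 ± 0.10 log2). None of 18 mesenchyme and matrix genes changed, with a median of 0.14. Vim, the intermediate filament gene of mesenchyme, read 43.9 and 49.98 FPKM against 67.7 and 66.9 FPKM (log2 fold change 0.51 ± 0.08, adjusted p = 4.5e-05).

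Of all genes tested 2.33% rose and 0.902% fell, so that a few calls in a list are not read as a change of its pathway. Among signalling pathways single genes moved rather than whole lists. The clearest was Lefty1, the feedback inhibitor of Nodal, at 99.9 and 96.2 FPKM in the controls and 492 and 507 FPKM with AM580 (log2 fold change 2.34 ± 0.04, adjusted p = 1.2e-14), the only call among 10 tested genes of Nodal and activin signalling. Tdgf1, the Nodal coreceptor Cripto, read 550 and 560 FPKM against 358 and 370 FPKM (-0.61 ± 0.04 log2) and was not called. Of 14 BMP pathway genes 2 rose, the inhibitory Smad gene Smad6 from 2.09 and 2.16 FPKM to 8.29 and 8.73 FPKM (1.61 ± 0.07 log2) and the target Id3 from 27.1 and 25.01 FPKM to 61.4 and 64.9 FPKM (1.25 ± 0.07 log2). Id1 and Id2, targets of the same pathway, differed by 0.94 and 0.88 log2 in the same direction, below the threshold, Id1 passing it under quantile normalization at 1.03. Of 30 Wnt pathway genes 2 rose, the antagonist Dkk1 and the receptor Fzd8, and 2 fell, Lef1 and the receptor Fzd7. Dkk1 did not reach the level for a test in the controls, with AM580 at 24 h or with Vc at 48 h. Fzd7 went from 50.6 and 52.8 FPKM to 24.6 and 23.6 FPKM (log2 fold change -1.07 ± 0.06, adjusted p = 3.1e-09), while Axin2, a common readout of the pathway, read 3.09 and 3.61 FPKM against 5.47 and 5.82 FPKM (0.61 ± 0.07 log2). Of 16 FGF and ERK genes 2 fell, Fgf4 and the target Etv5 (-1.09 ± 0.04 log2; -0.97 and not called under quantile normalization), while the target Dusp6 was higher by 0.74 ± 0.05 log2 without being called. The Notch ligand gene Dll3 fell from 11.1 and 10.2 FPKM to 2.81 and 2.76 FPKM (-1.62 ± 0.08 log2), 1 call among 10. Of 9 Hedgehog genes the coreceptors Gas1 and Cdon rose, by 1.09 and 1.07 log2, and Cdon lost its call without AM580 replicate 1 (0.95). In the Hippo list 1 of 20 rose, the junction protein gene Amot, from 3.08 and 2.81 FPKM to 14.5 and 14.0 FPKM (log2 fold change 1.95 ± 0.09, adjusted p = 2.1e-10).

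Both glucose transporter genes of the glycolysis list rose, and none of its enzyme genes did. For comparison, 2.33% of all genes tested rose and 0.902% fell. Slc2a3 went from 51.4 and 49.7 FPKM to 303 and 281 FPKM (log2 fold change 2.51 ± 0.04, adjusted p = 4.6e-15) and Slc2a1 from 106 and 106 FPKM to 324 and 324 FPKM (log2 fold change 1.60 ± 0.04, adjusted p = 1.2e-13). Of the 17 other tested genes of the list 1 fell, the lactate dehydrogenase gene Ldhb, from 91.6 and 91.2 FPKM to 39.0 and 37.1 FPKM (-1.24 ± 0.05 log2), and the median of all 19 was -0.08. Gapdh gave no usable value, at 85.7 and 109 FPKM in the controls and 72.1 and 3.63 FPKM with AM580, and near-identical copies in the genome can split its reads. It was not called in the model of all libraries (log2 fold change -2.41 ± 1.53, adjusted p = 0.19), but it was called without AM580 replicate 1 (-4.40 log2, adjusted p = 0.048) and with only the 4 libraries compared in the model (-2.41 log2, adjusted p = 0.027).

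Growth, death and housekeeping lists held few or no calls, where 2.33% of all genes tested rose and 0.902% fell. None of 20 genes of the cell cycle and replication changed (median -0.08), none of 10 cell cycle inhibitors and D cyclins (median 0.35; Ccnd3, a D cyclin at 0.96 ± 0.05 log2, passed at 1.00 without control replicate 2), and none of 18 genes of cholesterol synthesis (median 0.00). Of 14 p53 targets and apoptosis genes 1 fell, Pmaip1, which codes for the BH3 protein Noxa, from 146 and 142 FPKM to 55.2 and 48.4 FPKM (log2 fold change -1.46 ± 0.05, adjusted p = 5.6e-12). Of 9 germ cell and meiosis genes 1 rose, Rec8, the meiotic cohesin subunit, from 4.18 and 4.56 FPKM to 11.2 and 11.3 FPKM (log2 fold change 1.19 ± 0.11, adjusted p = 5.6e-07), while Dazl differed from control by 0.03 ± 0.07 log2 and Ddx4 by -0.02 ± 0.05. The 3 tested genes of the 2-cell-like state, Zscan4b, Zscan4f and Usp17la, rose by 1.62 to 1.74 log2. Of these, 1 reached the level for a test without the AM580 and V580 libraries at 48 h, and they belong to families of near-identical copies and their values are uncertain. None of 4 steroid synthesis genes changed. Some genes stand in several of these lists, such as Fgf4, Lef1, Gata4 and Krt7.

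**Figure D5:**
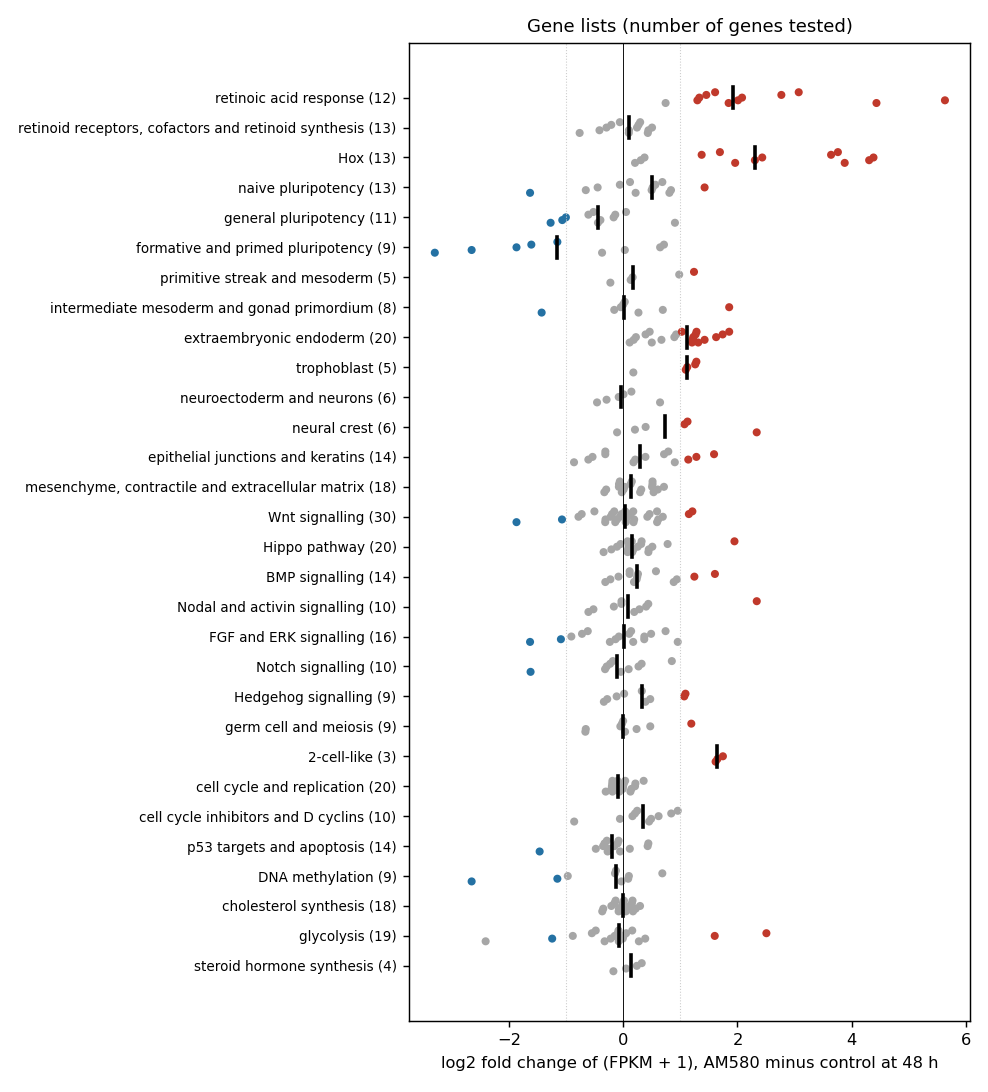
Log2 fold change of log2(FPKM + 1), AM580 minus control at 48 h, for each tested gene of 30 lists (points; red rose, blue fell, grey not called), with the list median (black bar), the number of genes tested in brackets and dotted lines at 2-fold. The points furthest to the right lie in the retinoic acid and Hox lists, and the formative list has the only median below -1. Medians cover tested genes only, some of which were tested only because of the treated libraries.

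The same contrast at 24 h used other libraries, which allowed the genes of 48 h to be looked up in them. At 24 h AM580 and control differed in 43 genes (0.404%), 39 (0.366%) higher and 4 (0.0376%) lower, and their libraries lay 0.21 to 0.22 root mean square log2 units apart. The adjusted p alone was passed by 1580 genes (14.8%). Of the 248 genes that rose at 48 h, 27 (10.9%) also rose at 24 h, and these 27 are 69.2% of the 39. Of the 96 that fell at 48 h, 3 (3.12%) fell at 24 h as well, namely Enpp2, Mycn and Esrp1. The 24 h value was positive in 219 of the 248 (88.3%), compared with 45.6% of all genes tested, and negative in 92 of the 96 (95.8%), compared with 54.4% of all genes. The median log2 fold change of the 248 genes was 0.33 at 24 h and 1.33 at 48 h, and that of the 96 was -0.37 and -1.24.

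Whether the effect itself differed between the times was tested as the 48 h effect minus the 24 h effect, which uses the libraries of both comparisons above. It passed the same thresholds in 202 genes (1.9%), 150 (1.41%) positive and 52 (0.489%) negative, and the adjusted p alone in 3721 (35%). Zfp703 had the largest difference among the named genes: AM580 shifted it by 0.33 ± 0.09 log2 at 24 h and 4.43 ± 0.09 at 48 h (difference 4.10 ± 0.12, adjusted p = 2.3e-11). Hoxb9 behaved alike, at 0.10 ± 0.11 and 3.88 ± 0.11 log2 (difference 3.77 ± 0.15, adjusted p = 2.5e-10). Cyp26a1 and Hoxb4 had already risen at 24 h, by 2.02 ± 0.09 and 1.54 ± 0.09 log2, and their differences were 3.61 ± 0.13 and 2.84 ± 0.12. Gata6 read higher at 24 h than at 48 h with AM580, 3.79 and 3.58 against 1.69 and 2.37 FPKM, and the difference of its effects was not called (-0.35 ± 0.13, adjusted p = 0.044). Crabp2 was not called at 24 h (log2 fold change -0.09 ± 0.09, adjusted p = 0.59), and its effects differed between the times by 1.39 ± 0.13 log2. Among genes that fell, Foxd3 and Pou5f1 differed between the times by -2.53 ± 0.12 and -1.11 ± 0.08 log2, with 24 h effects of -0.76 ± 0.09 and -0.16 ± 0.05.

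V580, the combination of Vc with AM580, was set beside AM580 alone to see what Vc added. V580 and AM580 at 48 h differed in 28 genes (0.263%), 3 (0.0282%) higher and 25 (0.235%) lower with V580, and their libraries lay 0.20 to 0.21 root mean square log2 units apart. The adjusted p alone was passed by 2046 genes (19.2%). Since this test shares the AM580 libraries with the one above, levels are given side by side as mean ± SD of 2 libraries. Cyp26a1 read 90.6 ± 4.58 FPKM with AM580 and 121 ± 3.02 FPKM with V580, against 0.860 ± 0.269 FPKM in control and 0.449 ± 0.191 FPKM with Vc (V580 minus AM580 log2 fold change 0.41 ± 0.09, adjusted p = 0.0055, below the fold threshold). Hoxb4 read 37.9 ± 1.14 FPKM with AM580 and 62.1 ± 6.66 FPKM with V580 (log2 fold change 0.70 ± 0.09, adjusted p = 5.2e-05). Pou5f1 read 189 ± 9.07 and 187 ± 2.38 FPKM (log2 fold change -0.01 ± 0.05, adjusted p = 0.9). None of these was called.

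The genes that differed included both glucose transporters and the keratins Krt8 and Krt18. Slc2a1 read 324 ± 0.0332 FPKM with AM580, 126 ± 4.56 FPKM with V580, 106 ± 0.506 FPKM in control and 68.9 ± 1.68 FPKM with Vc (log2 fold change -1.36 ± 0.04, adjusted p = 2.9e-11). Slc2a3 read 292 ± 15.7 FPKM with AM580 and 142 ± 4.15 FPKM with V580 (log2 fold change -1.04 ± 0.04, adjusted p = 1.9e-09). Krt8 read 98.5 ± 3.99 FPKM with AM580 and 41.8 ± 2.37 FPKM with V580, with 32.0 ± 0.418 FPKM in control (log2 fold change -1.22 ± 0.05, adjusted p = 3.1e-09). Krt18 differed by -1.005 ± 0.04 log2. Gata4 read 5.52 ± 0.280 FPKM with AM580 and 2.35 ± 0.427 FPKM with V580, just short of the threshold (log2 fold change -0.97 ± 0.10, adjusted p = 1.4e-05). Nanog read 26.0 ± 0.0789 and 17.3 ± 0.162 FPKM, with 17.9 ± 0.294 FPKM in control (log2 fold change -0.56 ± 0.05, adjusted p = 2.0e-06, below the fold threshold). Of the 3 genes higher with V580, Zscan4f carries the doubt on near-identical copies, and the other two, Mep1b and Magohb, had not been called between AM580 and control.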

How the data were processed

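Total RNA of the 48 h and 24 h cultures was selected for poly(A) and made into libraries with a kit that does not mark strand. The authors trimmed the reads, aligned them to mm10 with HISAT2 and counted them per gene with featureCounts; versions, and the tool that made the FPKM values, are not given in the sources used here. The deposited table holds FPKM for 13682 genes in 16 libraries of the experiment, and columns were matched to samples by name. From the low values, divisors of 16400000 to 22300000 fragments per library were recovered (97.1 to 97.5% of genes under 100 fragments whole within 0.1). One limma model (limma 3.58.1, R 4.3.3, with trend) was fitted to log2(FPKM + 1) of all 16 libraries by group, after a filter of 1 FPKM in 2 libraries, and p values were adjusted over all 10644 genes by the Benjamini-Hochberg method. A call needed an adjusted p below 0.05 and a 2-fold difference. The test recovered 100% of 200 genes changed by 1.5 log2 units, with 0 false calls, on simulated data for AM580 versus control at 48 h over 10644 genes. The simulated spread was normal and the change lay past the fold threshold, so that smaller changes were not covered. The changed genes were drawn only from those with higher control levels, and recovery of genes near or below 1 FPKM was not measured.

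The comparison, gene lists and markers were chosen with earlier results of these data known. Genes named outside the lists were Gata4, Foxl2, Nanog and Pou5f1 and the 12 largest rises and falls with a call, no overlap between the groups and 5 FPKM or more in the higher one, and a few others, chosen after their values were seen, as 24 h or V580 calls. Alternatives covered the pseudocount, filters, fold threshold, quantile and median-of-ratios scaling, the trend, the libraries fitted, a replicate block, each library left out and limma voom. Gene positions are from GENCODE vM21 on GRCm38 and promoters from RefSeq on GRCm38.p6. Samples of the series outside this experiment were not used here. A few genes are not reported here.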

Additional observations from a re-analysis of the deposited data

Results flagged for a closer look

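The effect of AM580 differed between 48 h and 24 h, by a test of the difference itself (limma, adjusted p below 0.05 and at least 2-fold), in 202 genes. Among the genes named above, the difference (48 h effect minus 24 h effect, log2) was 4.10 for Zfp703, 3.61 for Cyp26a1, 1.44 for Dhrs3 and 1.44 for Gata4. In the Hoxb cluster it was 3.77 for Hoxb9, 3.26 for Hoxb5, 3.13 for Hoxb6, 2.90 for Hoxb8 and 2.84 for Hoxb4. The remaining rises differed by 3.05 (Efnb1), 1.97 (Krt20), 1.80 (Pmp22) and 1.19 (Aard). Among the falls it was -2.53 for Foxd3, -2.06 for Sema6a, -1.96 for Dnmt3b, -1.91 for Pim2, -1.84 for Enpp2 and -1.78 for Slc27a2. It was -1.75 for Sall1, -1.70 for Mycn, -1.59 for Apela, -1.53 for Jph4, -1.45 for Hes6, -1.11 for Pou5f1 and -1.02 for Lef1. The difference shares its 48 h libraries with the 48 h comparison.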

How the results depend on the processing

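With a pseudocount of 0.1 FPKM the counts of calls were 664 for AM580 against control at 48 h, 124 at 24 h, 435 for the difference between the times and 83 for V580 against AM580. With no fold threshold they were 6063, 1580, 3721 and 2046. With limma voom on the recovered fragments, an alternative chosen after seeing the data, they were 733, 150, 485 and 107. Leaving out 1 library at a time gave 343 to 349, 45 to 47, 198 to 215 and 27 to 31. The other alternatives stayed within 1.5 times of 344, 43, 202 and 28. Correlations of same-numbered libraries' deviations lay between -0.42 and 0.21, and a fit with the replicate block gave 344, 43, 202 and 28 calls. A batch shared by libraries of unlike number was not tested. Of 384 tested genes in the lists or named, 5013 of 5271 values under 14 alternatives kept direction and call, and none reversed. With 2 libraries a group the spread comes from all 16 libraries, and a library left alone in its group is taken to vary like the rest.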

Other observations

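At 24 h 13 genes passed the test between AM580 and control that did not pass it at 48 h. They were chosen after their values were seen. The water and glycerol channel gene Aqp3 read 1.32 ± 0.177 FPKM in control and 10.4 ± 1.21 FPKM with AM580 at 24 h (mean ± SD, n = 2), against 0.521 ± 0.00224 and 0.905 ± 0.137 FPKM at 48 h, and its effect differed between the times (limma, 48 h minus 24 h, -1.97 ± 0.12, adjusted p = 2.5e-08). Themis2, a signalling adaptor of lymphoid and myeloid cells, read 1.63 ± 0.150 and 6.44 ± 0.401 FPKM at 24 h and 1.16 ± 0.137 and 1.56 ± 0.0916 FPKM at 48 h (difference -1.26 ± 0.13, adjusted p = 5.3e-06). The others were Acp5, Camk1, Cd14, Fbp1, Gm13889, Guca1b, Myo1f, Pptc7, Rhobtb1, Slc16a3 and Tmtc1.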
